A study of Mus musculus with 6 samples.

Results

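A set of 9 genes of the p53 pathway was followed in mouse spleen CD4+ T cells of the C57BL/6J strain: Trp53, which codes for p53 itself, and its targets Cdkn1a, Mdm2, Ccng1, Trp53inp1, Perp, Phlda3, Zmat3 and Sesn1. They were taken by gene name from a count table, and all 9 names were found once among 21139 genes. All libraries came from cells stimulated for 2 days with antibodies to CD3 and CD28, which stand in for antigen and co-stimulation. In 3 libraries the cells were kept in medium, and in the other 3 they received CpdA, an agonist of the fatty acid receptor Gpr120, at a labelled dose of 20 "microm". Nothing in the labels gives the vehicle, the age and sex of the animals or how many animals stand behind the libraries, and p-values measure the spread between these libraries, which may be technical.

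p53 is a transcription factor that is held at a low level by the ubiquitin ligase Mdm2 and is stabilised when DNA is damaged or cells are stressed. It then binds a response element in or near its target genes. The targets stop the cell cycle, repair DNA, adjust metabolism or trigger cell death, and Mdm2, a target itself, closes a negative feedback loop. In T cells p53 is known to restrain the proliferation that follows antigen receptor stimulation. The amount and activity of the p53 protein were not measured here, and the values below are RNA levels.

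Matches to the p53 consensus site in listed promoters are shown first, since that site is the sequence p53 is known to bind; how closely they matched differed widely between the genes. The p53 consensus site is a pair of 10-base repeats that reads alike on both strands. It was searched as 20 bases with no gap between the repeats, so a pair with a gap would not be seen. The search covered RefSeq promoters of GRCm38.p6, which run from 250 bases before to 50 bases after a gene start. They were listed for 6 of the 9 genes, 8 promoters in all. Trp53inp1, Zmat3 and Perp had no entry there. A match had to hold the 4 fixed letters of the consensus, and mismatches at the other 16 positions were counted. Cdkn1a and Ccng1 each held a site with 1 mismatch. Over all 32851 promoters, 22 (0.067%) held such a site or a better one, and among 57 other genes of the pathway with an entry only Rps27l and Gtse1 did. The best match in Trp53 and in the second Sesn1 promoter had 3 mismatches, a level reached by 1.38% of all promoters. The best matches in Phlda3 and Mdm2 had 5 and 9. In the first Sesn1 promoter, at the start in the deposited table (41810574), the best match had 8 mismatches. The best match in the second Cdkn1a promoter had 7. A match describes the letters in this window, and an element elsewhere in a gene would not be seen. In the lines below, capitals mark the 4-base centre of each repeat.

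Cdkn1a, chr17:29090928-29090947, plus strand: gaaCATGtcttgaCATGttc
Ccng1, chr11:40755462-40755481, minus strand: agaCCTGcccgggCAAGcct
Trp53, chr11:69580284-69580303, plus strand: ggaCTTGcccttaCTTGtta
Sesn1, chr10:41887266-41887285, plus strand: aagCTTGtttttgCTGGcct
Gtse1, chr15:85859945-85859964, plus strand: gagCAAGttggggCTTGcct
Rps27l, chr9:66946296-66946315, plus strand: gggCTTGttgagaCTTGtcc

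In Cdkn1a the site ended 31 bases before the upstream of its RefSeq starts (29090979, which is also the start in the deposited table) and 2821 bases before the other start at 29093769. The 250 bases before the upstream start (chr17:29090729-29090978, plus strand) are printed, with the site in capitals, because Cdkn1a is the most abundant of the 9 transcripts and its site is 1 of the pair with a single mismatch.

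Cdkn1a upstream: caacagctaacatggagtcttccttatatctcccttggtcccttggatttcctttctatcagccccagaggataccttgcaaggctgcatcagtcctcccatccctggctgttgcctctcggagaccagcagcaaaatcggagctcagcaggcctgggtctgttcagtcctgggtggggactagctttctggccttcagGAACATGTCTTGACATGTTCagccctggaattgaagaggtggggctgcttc

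Library totals lay between 20247761 and 25952169 counts. Of 10 CD4 T cell markers all were detected. Their sum ran from 3220 to 3260 CPM (counts scaled to the library total) in medium and from 3069 to 3140 CPM with CpdA. Cd8a and Cd8b1 together had at most 9.40 CPM and B cell markers at most 30.5 CPM. Stromal and endothelial markers reached 78.5 CPM, mostly Pecam1, and NK cell markers 55.5 CPM, mostly Gzma. Along the leading principal component (44.8% of the variance) the groups lay apart.

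With CpdA, the transcripts of the p53 pathway went in different directions. Trp53 rose by about 13.4%, and its targets Cdkn1a, Trp53inp1 and Perp fell. Mdm2, Ccng1, Phlda3, Zmat3 and Sesn1 had values within 0.11 of 0 on the log2 scale that did not pass the test. So 4 of 9 genes passed at an adjusted p under 0.05 (edgeR's quasi-likelihood test, Benjamini-Hochberg adjustment over all 13507 genes tested), or 44.4%, beside 33.2% of all genes tested. One gene rose, where 16.5% of all genes rose, and 3 fell, where 16.7% of all genes fell. The share of 33.2%, also used for the lists below, includes genes of low counts, which are harder to call. Among genes with at least 5 CPM in 3 libraries, 4165 of 9845 passed, and of the 9 genes again 4. The median log2 fold change of the 9 was 0.07 and that of all genes 0.0004. A difference in RNA per cell and a difference in the mix of cells cannot be told apart in bulk libraries.

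**Figure D1:**
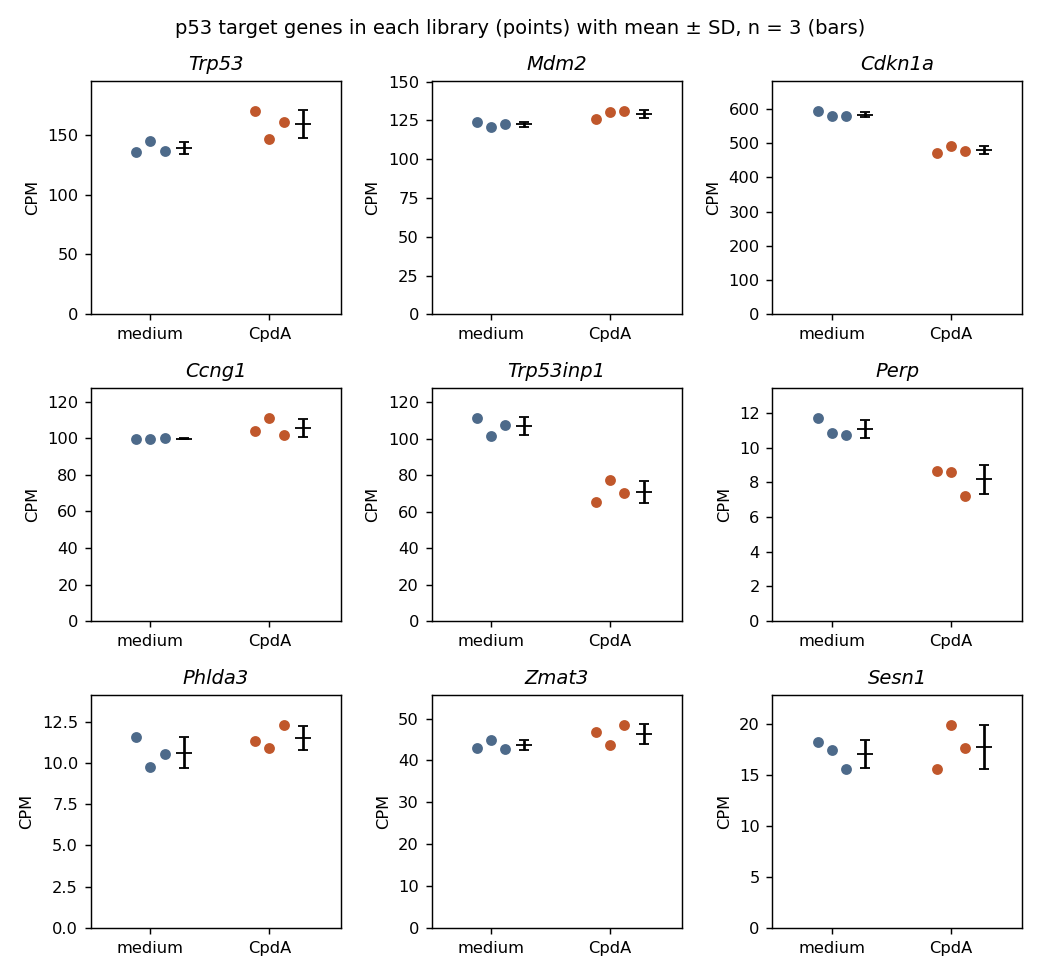
CPM of each of the 9 genes in each library (points; 3 medium and 3 CpdA libraries per panel, linear axes from 0), with the group mean ± SD beside them. Trp53inp1, Cdkn1a and Perp lie lower in every CpdA library than in any medium library, while Trp53 lies higher, with its second CpdA library (146.4 CPM) just above the highest medium library (144.9 CPM).

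Trp53 (chromosome 11, 69580359 to 69591873, plus strand, GRCm38) was read at 135.3, 144.9 and 136.4 CPM in the medium libraries and at 169.4, 146.4 and 160.8 CPM in the CpdA libraries. The groups did not overlap, but the gap between them was narrow, because CpdA replicate 2 stood close to medium replicate 2. The log2 fold change was 0.18 ± 0.04 (SE; adjusted p = 0.000543, edgeR), higher in 3 of 3 CpdA libraries. Without CpdA replicate 1 it was 0.14 and without CpdA replicate 2 it was 0.24, and both passed. Annotation lists a pseudogene, Trp53-ps, with which reads may be shared; it was not analysed here. Wrap53, the neighbour on the opposite strand, begins with 103 bases between it and Trp53 in the deposited table and does not overlap it. Wrap53 itself averaged 15.4 ± 1.4 CPM in medium libraries and 18.2 ± 2.1 CPM in CpdA libraries (SD, n = 3), and rose by 0.23 (adjusted p = 0.038, edgeR), although 1 CpdA library lay within the medium range. The Wrap53 call was lost with DESeq2 (adjusted p = 0.0885) and without medium replicate 1, medium replicate 2 or CpdA replicate 1 (adjusted p = 0.0594, 0.224 and 0.279, edgeR).

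Mdm2, the ligase that marks p53 for degradation (chromosome 10, 117688888 to 117710758, minus strand), had an estimated rise of 4.7% with CpdA. Its medium libraries had 124.2, 120.9 and 122.7 CPM and its CpdA libraries 125.9, 130.7 and 130.8 CPM. Every CpdA library was above every medium library, yet the log2 fold change of 0.07 (95% interval -0.004 to 0.14) did not pass (adjusted p = 0.145, edgeR). Groups that do not overlap were common in these data: 43.9% of all genes tested had them, and 6 of the 9 genes here. The relative of Mdm2 that also binds p53, Mdm4, averaged 242.3 ± 14.6 CPM in medium libraries and 247.9 ± 8.4 CPM in CpdA libraries (SD, n = 3), with a log2 fold change of 0.02 (adjusted p = 0.639, edgeR).

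Cdkn1a codes for p21, the inhibitor of cyclin-dependent kinases through which p53 stops the cell cycle (chromosome 17, 29090979 to 29100722, plus strand). It was by far the highest of the 9 genes: only 1.61% of tested genes had more CPM in medium. The medium libraries had 592.0, 577.4 and 578.5 CPM and the CpdA libraries 470.2, 492.4 and 476.2 CPM. The groups lay far apart relative to their spread, with all 3 CpdA libraries lower. Cdkn1a fell by 0.29 ± 0.03 on the log2 scale (SE; adjusted p = 6.16e-11, edgeR), and the linear level fell by 18.2%. Another gene model overlaps exons of Cdkn1a in the GENCODE annotation. Its strand was not examined and the strand setting of the counting is not given, so its reads cannot be told from those of Cdkn1a.

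Ccng1 codes for cyclin G1, a target that recruits a phosphatase to Mdm2 (chromosome 11, 40748552 to 40755311, minus strand). It was read at 99.5, 99.8 and 99.96 CPM in medium, the tightest group of any of the 9 genes, and at 103.8, 110.97 and 102.1 CPM with CpdA. The CpdA libraries were all above medium but spread more widely. The log2 fold change was 0.07 (95% interval -0.005 to 0.15) and did not pass (adjusted p = 0.152, edgeR). Without CpdA replicate 2, the highest library, it was 0.04. Thus the 2 genes with a near-consensus site in a listed promoter, Cdkn1a and Ccng1, had log2 fold changes of -0.29 and 0.07.

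Trp53inp1 changed most of the 9. It codes for a protein that takes part in p53-dependent cell death and in autophagy (chromosome 4, 11156431 to 11174379, plus strand). Medium libraries had 111.1, 101.5 and 107.7 CPM, and CpdA libraries 65.3, 77.1 and 70.1 CPM. All 3 CpdA libraries were well below the lowest medium library. The log2 fold change of CpdA over medium was -0.60 ± 0.05 (SE; adjusted p = 6.38e-12, edgeR), or a level 1.51-fold lower. Among all genes tested 5.92% moved at least 0.60 in either direction.

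Perp codes for a membrane protein that serves as an effector of p53-dependent cell death and is a part of desmosomes in epithelia (chromosome 10, 18845071 to 18857073, plus strand). It was low, at 11.7, 10.8 and 10.8 CPM in medium and 8.69, 8.63 and 7.22 CPM with CpdA, from 739 and 592 counts per group. Perp fell by 0.45 ± 0.10 on the log2 scale (SE; adjusted p = 0.000584, edgeR), with all 3 CpdA libraries below medium. Without CpdA replicate 3, the lowest library, the log2 fold change was -0.36 (adjusted p = 0.0143, edgeR). Sums of markers of other cell types went in both directions. Of 5 epithelial markers 3 were measured, and their sum ran from 7.79 to 8.84 CPM in medium and from 5.79 to 7.26 CPM with CpdA, most of it Epcam (7.06 and 5.79 CPM). Stromal and endothelial markers (5 of 5 measured) ran from 73.5 to 78.5 and from 58.7 to 66.4 CPM, most of it Pecam1. Macrophage (4 of 5), neutrophil (3 of 5) and erythroid (4 of 5 measured) marker sums were also lower in every CpdA library, with means of 5.40, 7.91 and 9.52 CPM in medium and 4.26, 6.14 and 6.58 CPM with CpdA. Dendritic cell markers (5 of 5) were higher in every CpdA library, from 6.12 to 6.56 CPM in medium and from 6.86 to 8.22 CPM with CpdA. These 6 sums each had an exact two-sided permutation p of 0.1, the smallest that 3 libraries against 3 can give. The CD4 T cell sum given above was also lower in every CpdA library, with the same p from that test. Its leading marker Cd5 went the other way, with means of 573 CPM in medium and 638 CPM with CpdA. CD8 T cell (8.31 and 8.55 CPM), B cell (27.8 and 27.4 CPM) and NK cell markers (52.4 and 49.2 CPM) had ranges that overlapped between the groups. The part of these markers in the Perp result was not tested.

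**Figure D2:**
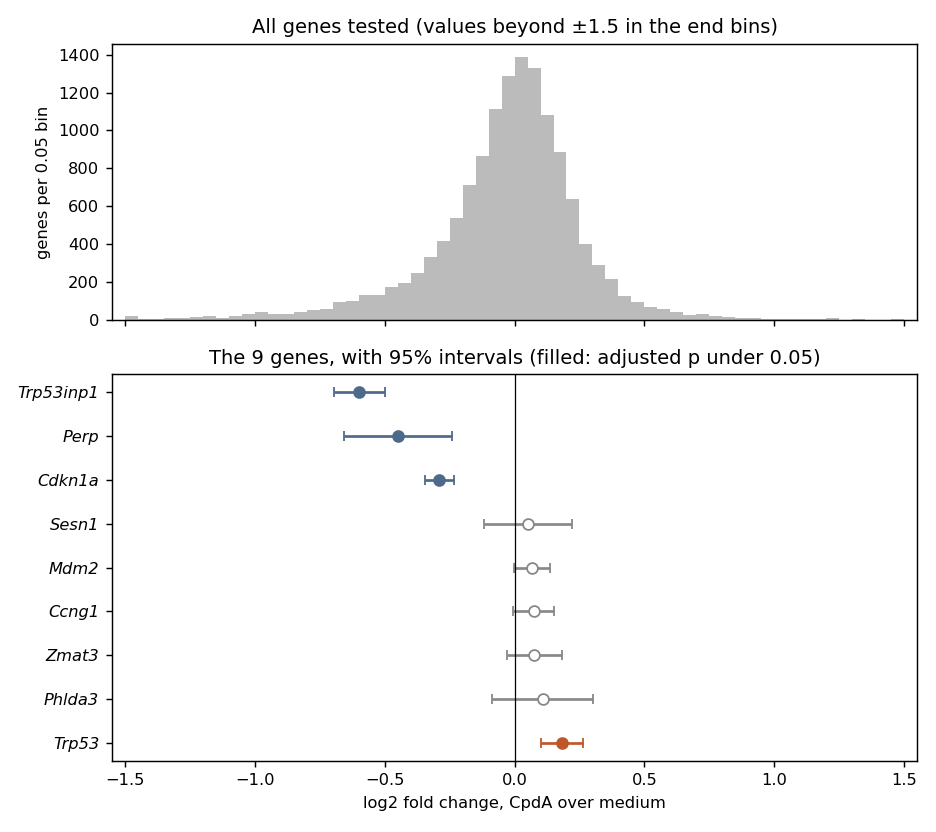
Log2 fold changes of CpdA over medium. The upper panel counts all 13507 genes tested in bins of 0.05; the lower panel gives the 9 genes with 95% intervals, filled where the adjusted p was under 0.05. Trp53inp1 (-0.60), Perp (-0.45) and Cdkn1a (-0.29) stand to the left, Trp53 (0.18) to the right, and the intervals of the other 5 include 0.

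The other 3 targets showed no difference that passed the test. Phlda3 codes for a small pleckstrin homology protein that competes with Akt for membrane lipids (chromosome 1, 135766119 to 135769136, plus strand). It had 11.6, 9.73 and 10.5 CPM in medium and 11.3, 10.9 and 12.3 CPM with CpdA. The groups overlapped, and the log2 fold change was 0.11 (95% interval -0.09 to 0.30; adjusted p = 0.419, edgeR). Zmat3, an RNA-binding zinc finger protein (chromosome 3, 32334796 to 32365678, minus strand), was read at 43.1, 45.0 and 42.8 CPM in medium and at 46.9, 43.7 and 48.4 CPM with CpdA. Its groups overlapped too, through CpdA replicate 2, with a log2 fold change of 0.08 (95% interval -0.03 to 0.18; adjusted p = 0.275, edgeR). Sesn1, a sestrin that restrains mTORC1 when amino acids are scarce (chromosome 10, 41810574 to 41908424, plus strand), had 18.2, 17.5 and 15.6 CPM in medium and 15.6, 19.9 and 17.7 CPM with CpdA. Its log2 fold change of 0.05 (95% interval -0.12 to 0.22; adjusted p = 0.683, edgeR) turned to -0.04 without CpdA replicate 2 and to -0.01 without medium replicate 3. For these 3 genes a change as large as that of Trp53inp1 lies outside the interval, while one of the size seen for Trp53 lies inside for Phlda3 and Sesn1 and at the upper bound for Zmat3.

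Per length, Cdkn1a also led the order of levels, at 305.04 ± 4.3 FPKM in medium (counts scaled by gene length and library total; SD, n = 3). Trp53 followed at 42.4, Mdm2 at 39.1, Ccng1 at 28.4 and Trp53inp1 at 19.7 FPKM, each apart from its neighbours in every medium library. Phlda3 was at 7.40 FPKM, above Perp at 5.84, Zmat3 at 5.60 and Sesn1 at 5.39 FPKM, and within those last 3 each neighbouring pair overlapped. With CpdA the order of the first 5 was the same, and Perp came last at 4.30 FPKM.

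The genes closest in pattern to the 2 extremes were found by the Euclidean distance of centred log2 CPM over the 6 libraries. Since this distance includes the difference between the groups, the genes it picks have similar log2 fold changes by construction. Nearest to Trp53inp1 were Slc2a3, a glucose transporter, at 0.033, Arhgef10 at 0.056 and Utrn at 0.060. Slc2a3 was far more abundant, at 1824 CPM in medium and 1228 CPM with CpdA, and had a log2 fold change of -0.58. Nearest to Trp53 were Zscan22 at 0.046, Ung, the uracil-DNA glycosylase of base excision repair, at 0.049 and Gpank1 at 0.050, with log2 fold changes of 0.21, 0.19 and 0.21. Of these Ung passed the test (adjusted p = 0.00741, edgeR), though not without CpdA replicate 1 (adjusted p = 0.0549), and Zscan22 and Gpank1 did not (adjusted p = 0.0926 and 0.0552, edgeR). Without CpdA replicate 2 both of the latter passed (adjusted p = 0.041 and 0.0343, edgeR).

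Relatives in the same gene families did not all follow the 9 genes. Cdkn1b, which codes for the kinase inhibitor p27, fell by 0.44 (adjusted p = 2.01e-12, edgeR), from 37.9 to 28.04 FPKM, beside the fall of Cdkn1a, and Cdkn1c was at 0.54 and 0.68 FPKM. Ccng2, the relative of Ccng1, fell by 0.35 (adjusted p = 8.28e-11, edgeR), from 36.1 to 28.4 FPKM. Trp53inp2 had 2.70 and 2.33 FPKM and a log2 fold change of -0.22 that did not pass (adjusted p = 0.091, edgeR). Sesn2, induced by nutrient stress, rose by 0.18 (adjusted p = 0.00299, edgeR), whereas Sesn3, at 50.9 FPKM the most abundant sestrin, fell by 0.11 (adjusted p = 0.035, edgeR) with groups that overlapped. The Sesn3 call was lost under 6 of 13 alternatives, among them the omission of medium replicate 1, medium replicate 3 or CpdA replicate 1 (adjusted p = 0.0663, 0.268 and 0.281, edgeR). Phlda1 rose by 0.84 (adjusted p = 8.28e-07, edgeR) from 2.25 to 4.08 FPKM. Of 11 relatives measured, 9 were tested, 2 rose and 3 fell, 55.6% beside 33.2% of all genes. Differences between relatives were not tested. Trp73 and Phlda2 were too low to test.

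**Figure D3:**
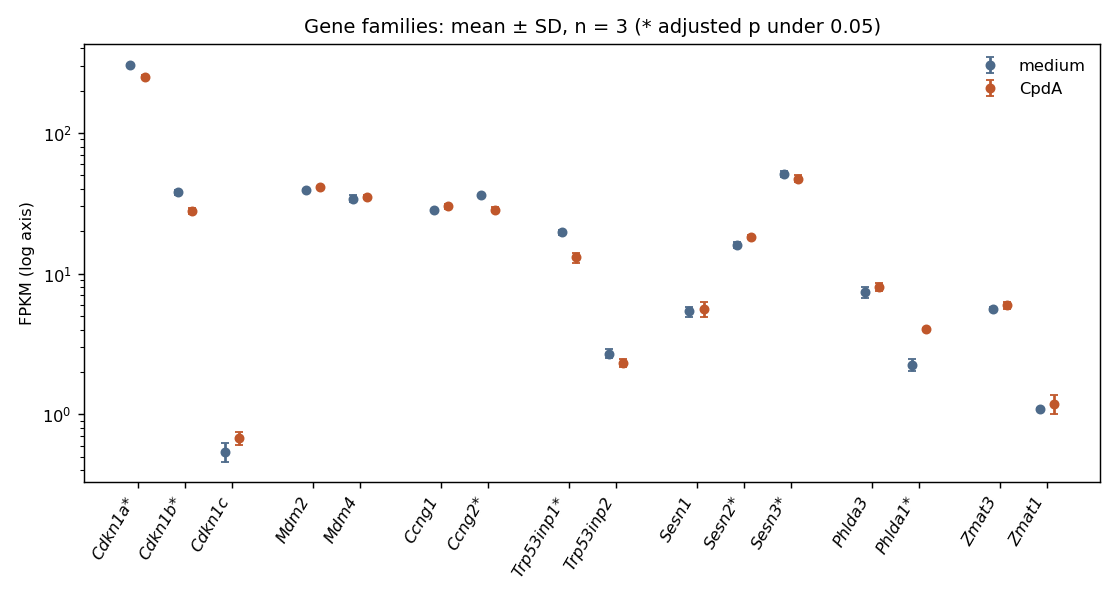
Levels per length (FPKM, log axis; mean ± SD, n = 3 libraries per group) of gene families, with an asterisk where the adjusted p was under 0.05. Cdkn1a stands at 305.04 FPKM in medium, above all its relatives; Cdkn1b and Ccng2 were lower with CpdA, and Phlda1 was higher.

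The wider pathway was read from a list of 67 other genes, of which 66 were measured and 63 tested. With CpdA 21 rose and 15 fell, so 57.1% passed, beside 33.2% of all genes tested. With DESeq2 14 rose and 15 fell, so the larger number of rises depended on the method. Their median log2 fold change was 0.04, and the lists below held changes in both directions.

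Of 14 genes that act on p53, 3 rose and 2 fell, and this 35.7% is near the 33.2% of all genes tested that passed. The checkpoint kinase gene Chek1 rose by 0.40 (adjusted p = 2.81e-07, edgeR), from 33.1 to 43.9 CPM, and Usp7, a deubiquitinase of Mdm2 and p53, by 0.10. Atr, the kinase above Chek1, fell by 0.41 (adjusted p = 0.0041, edgeR), from 95.7 to 72.5 CPM, and the ligase gene Rchy1 by 0.16. The call of Rchy1 was lost without any 1 of medium replicate 1, medium replicate 3, CpdA replicate 2 and CpdA replicate 3 (adjusted p = 0.0681, 0.0935, 0.0724 and 0.14, edgeR). The kinase genes Atm and Chek2 did not pass, at 0.02 and 0.0005 on the log2 scale (adjusted p = 0.752 and 0.998, edgeR). The phosphatase gene Ppm1d, a target that switches p53 signalling off, rose by 0.19 (adjusted p = 0.0357, edgeR). That call too was lost under 6 of 13 alternatives, among them the omission of medium replicate 2, medium replicate 3, CpdA replicate 1 or CpdA replicate 3 (adjusted p = 0.0562, 0.139, 0.181 and 0.0998, edgeR).

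Of the 8 tested targets that act on the cell cycle, 4 rose and 1 fell, 62.5% beside 33.2% of all genes. Btg2, an antiproliferative gene, fell by 0.34 (adjusted p = 3.34e-09, edgeR), from 121.1 to 96.3 CPM, as Cdkn1a did. Gadd45a, a stress sensor, rose by 0.55 (adjusted p = 0.00011, edgeR) from 6.26 to 9.25 CPM, and Gtse1, a mitotic gene whose product shuttles p53 out of the nucleus, rose by 0.24. Plk3 rose by 0.17 (adjusted p = 0.0212, edgeR), but missed the threshold with DESeq2 (adjusted p = 0.0521) and without medium replicate 1, medium replicate 3 or CpdA replicate 3 (adjusted p = 0.117, 0.107 and 0.0509, edgeR).

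Of 13 targets in cell death, 5 rose and 1 fell, 46.2% beside 33.2% of all genes. Pidd1, the core of the PIDDosome, rose by 0.38 (adjusted p = 7.02e-05, edgeR) from 20.5 to 26.9 CPM, Aen, an apoptosis-enhancing nuclease, by 0.28 and Trp53i11 by 0.19. Bax, the pore-forming protein of the mitochondrial pathway, rose by 0.11 (adjusted p = 0.0271, edgeR), a call lost under 5 of 13 alternatives, among them the omission of medium replicate 3, CpdA replicate 1 or CpdA replicate 3 (adjusted p = 0.225, 0.0771 and 0.0526, edgeR). The apoptosome gene Apaf1 fell by 0.16, a call lost without CpdA replicate 1 (adjusted p = 0.0659, edgeR). The BH3-only genes Bbc3 and Pmaip1 and the death receptor gene Fas had log2 fold changes of 0.04, 0.21 and 0.07 and did not pass (adjusted p = 0.745, 0.0731 and 0.501, edgeR). Pmaip1 passed, at 0.30, without medium replicate 1 or CpdA replicate 1 (adjusted p = 0.0172 and 0.0112, edgeR).

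Of 9 repair and nucleotide genes, 3 rose and 2 fell, 55.6% beside 33.2% of all genes, and the calls of Polh and Polk among them were lost under some alternatives. Pcna, the sliding clamp of replication, rose by 0.12 from 414 to 453.9 CPM, and Rrm2b, the p53-induced ribonucleotide reductase subunit, by 0.24 (adjusted p = 0.000954 and 0.0087, edgeR). The bypass polymerase genes went apart, with Polh 0.14 higher and Polk changed by -0.17. Polh missed the threshold with DESeq2 (adjusted p = 0.0579) and without medium replicate 1, medium replicate 3, CpdA replicate 1 or CpdA replicate 3 (adjusted p from 0.0504 to 0.112, edgeR), and Polk without medium replicate 1 or CpdA replicate 3 (adjusted p = 0.104 and 0.101, edgeR). The damage-recognition genes Ddb2 and Xpc did not pass, at -0.09 and -0.01 on the log2 scale (adjusted p = 0.374 and 0.947, edgeR).

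Of 9 tested metabolic targets 4 rose and 4 fell, 88.9% beside 33.2% of all genes; differences in such shares between lists were not tested. Gls2, a mitochondrial glutaminase, fell by 0.53 (adjusted p = 4.86e-11, edgeR), from 60.6 to 42.1 CPM. Ephx1, an epoxide hydrolase, fell by 0.64 from 31.8 to 20.5 CPM, Lpin1, a phosphatidate phosphatase, by 0.38 and Ddit4, an inhibitor of mTORC1 that hypoxia also induces, by 0.34. The 4 that rose were Sesn2, Gpx1, Prkab1 and Tigar, which lowers glycolytic flux, by 0.18 to 0.20. Tigar missed the threshold under 7 of 13 alternatives, among them the omission of any 1 library other than CpdA replicate 3 (adjusted p from 0.0521 to 0.115, edgeR). Of 10 other tested targets, 2 rose and 5 fell, 70% beside 33.2% of all genes. Ptpn14 fell by 0.67, Abhd4 by 0.37 and the cytokine gene Lif by 0.15, while Rps27l, whose promoter site is printed above, rose by 0.17 (adjusted p = 0.000311, edgeR).

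p53 also lowers many cell cycle genes indirectly, through p21 and the DREAM repressor complex. Of 16 such genes 11 rose with CpdA and 0 fell, 68.8% beside the 16.5% of all genes that rose, with a median log2 fold change of 0.19. Ccnb1, the mitotic cyclin, rose by 0.31 from 122.8 to 153.9 CPM (adjusted p = 5.53e-09, edgeR), Mcm5, a helicase subunit of replication, by 0.26 and Birc5, survivin, by 0.31. Chek1, which is also in the list of genes that act on p53, rose by 0.40. Only Bub1 had a value below 0, at -0.02 (adjusted p = 0.698, edgeR). The relation of this count to the lower Cdkn1a was not tested.

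**Figure D4:**
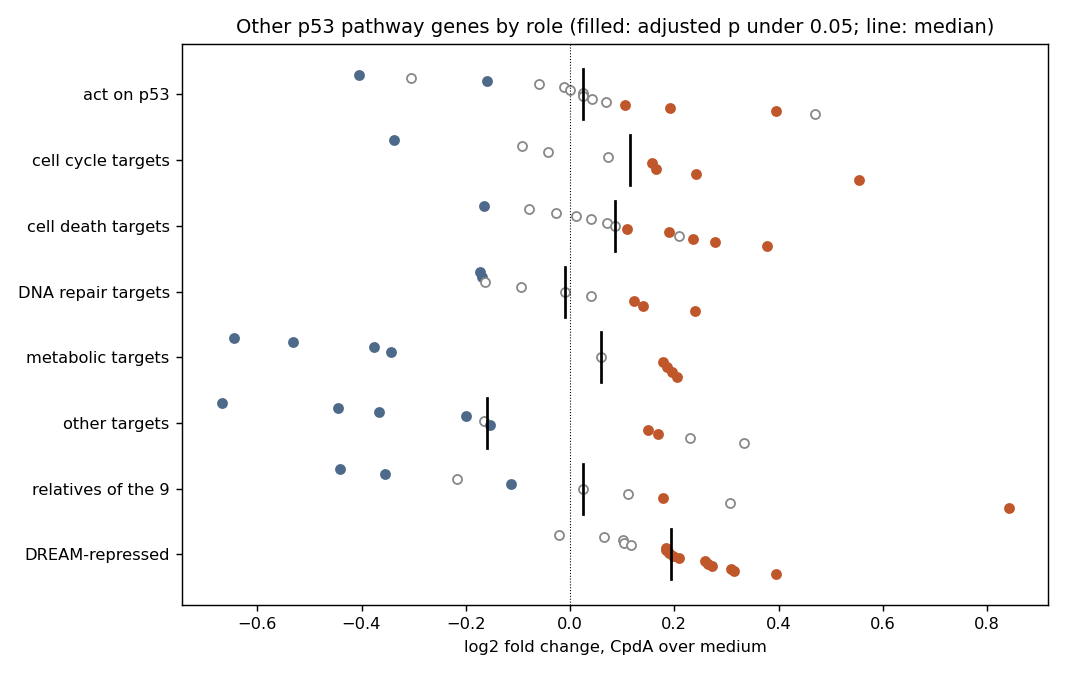
Log2 fold changes of CpdA over medium for the other genes of the p53 pathway, the relatives of the 9 genes and the DREAM-repressed genes, grouped by role. Each tested gene has 1 point per list, so Chek1, Mdm4 and Sesn2 are drawn in more than 1 list. A line stands at each list's median, and filled points had an adjusted p under 0.05. The metabolic targets split into a lower and a higher group, while 15 of the 16 DREAM-repressed genes lie above 0.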

How the data were processed

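RNA was measured in 6 libraries, grouped by the labels alone. The deposited table gives raw read counts per gene, per the file headers, with no normalization, and FPKM that the authors computed from count, gene length and library total (recomputed here within a relative 1.86e-07). The submitters' processing notes name CASAVA 1.8, GRCm38 and mm10; aligner, counter and strand setting: not given in the sources used here. There were 0 columns of per-sample values without a sample.

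All 13507 genes that passed filterByExpr (minimum count 10, minimum total 15) entered edgeR 4.0.16 (quasi-likelihood, TMM, robust, no covariates; R 4.3.3), p-values were Benjamini-Hochberg adjusted over all of them, and all 9 genes passed the filter. SE is the absolute log2 fold change over the root of F, and intervals are 95%. CPM uses library totals, and 3 counts correspond to at most 0.148 CPM. Likeness used log2 CPM with a prior count of 2. Other genes were taken from each list as up to 4 changed genes with the smallest p (1 such gene is not reported here); Atm, Chek2, Ppm1d, Mdm4, Cdkn1c, Trp53inp2, Sesn3, Bax, Bbc3, Pmaip1, Fas, Ddb2, Xpc, Gpx1, Prkab1, Tigar, Rps27l, Bub1 and Wrap53, and the promoter search, were chosen after values were seen. The genes and lists were chosen with earlier results of these data known. Alternatives were DESeq2 1.42.0, limma-voom (limma 3.58.1), other scalings and filters, the replicate block and leaving out each library. The fit and the motif search were tested on simulated data. Libraries of a group differed by more than sampling noise (chi-square per degree of freedom 2.17 to 4.17).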

Additional observations from a re-analysis of the deposited data

How the results depend on the processing

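The same number of the 9 genes passed under all 13 alternatives (4, with 1 higher and 3 lower), and none of the 9 crossed the threshold or, if called, changed direction. Log2 fold changes ran from 0.14 to 0.24 for Trp53, from -0.66 to -0.54 for Trp53inp1, from -0.31 to -0.27 for Cdkn1a and from -0.49 to -0.36 for Perp. Among the 67 other pathway genes, the 36 calls became 28 to 35 with 1 library fewer, 29 with DESeq2 and 36 to 38 with other scalings, limma-voom or count filters. With the replicate block, 4 of the 9 genes and 31 of the other pathway genes were called. Ppm1d, Bax and Tigar among them, and Sesn3 among the relatives, then missed the threshold (adjusted p = 0.0518, 0.0605, 0.0506 and 0.0603, edgeR). Correlations of same-numbered deviations from the group means were -0.02, -0.01 and -0.0006, and not every library correlated best with its own number. Whether same-numbered libraries share an animal or culture cannot be decided from these values, since shifts of opposite sign would not raise them. Positions on the leading principal component were -21.3, -12.7 and -16.3 in medium replicates 1, 2 and 3. With CpdA they were 21.1, 12.4 and 16.7 in the same order, and a pairing of the libraries was not tested further. Depth limits Perp and Phlda3 most, with 592 to 835 counts per group, and small changes of Sesn1 were not resolved.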
